A study of Mus musculus with 8 samples.

Results

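The genes described here are 37 genes of the type I interferon response, chosen by symbol: the receptor, its transcription factors, sensors of foreign nucleic acid, and antiviral or other interferon-inducible genes. Guanylate-binding and immunity-related GTPases were not included. Of the 37 symbols, 35 matched a probe set that names a single gene, out of 18193 genes on the array, and each was read from its brightest probe set. All 35 passed the filter on low signal, which asks that the probe set lie above the median of its array on at least 2 arrays and which 11957 genes passed. Of the 35, 28 lay above that median on all 8 arrays. The expression of Isg15 and Ifi44 was not analysed here, but both are counted among the promoters below.

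The study hybridised RNA of LY6D-negative common lymphoid progenitors to Affymetrix arrays. These are lineage-negative, FLT3+ CD127+ bone marrow cells, an early stage of lymphocyte development. The mice were C57bl/6, aged 10 to 13 weeks, and were wild type (WT, 2 arrays), HEB-KO (2 arrays) or E2A-KO (4 arrays). The alleles are not given beyond these names. Each genotype was sorted at least 2 times, each time from a pool of several marrows. The labels do not say whether any of the 4 E2A-KO arrays shared a sort. The p-values therefore describe how these arrays of pooled cells differ, which may in part be technical, rather than how single mice differ. E2A, encoded by Tcf3, and HEB, encoded by Tcf12, are E proteins, helix-loop-helix transcription factors that bind E-box sequences.

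Type I interferons bind a receptor of the IFNAR1 and IFNAR2 chains, whose kinases JAK1 and TYK2 pass the signal on by phosphorylation. STAT2 and IRF9 act in a complex that binds the interferon-stimulated response element (ISRE) and switches on a large set of antiviral genes. Some of these genes are also expressed at a basal level in unstimulated cells.

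The promoters below are shown because Ifit1 and Ddx58 had the smallest p in HEB-KO against WT apart from the called genes Usp18 and Rtp4, and because Ifit1 and Ifit3 are neighbouring genes of 1 family with different values. Ifit3 and Oasl2 were added after their values were seen. Each sequence runs from 170 bases before to 30 bases after the RefSeq start in GRCm38.p6, in the direction of transcription. Capitals mark the ISRE core, spelled GAAA, 2 bases of any kind and GAAA, or the E-box form CAGGTG, on either strand. The regions are chr4:40239796-40239995 (minus strand) for Ddx58, chr19:34640719-34640918 (plus) for Ifit1, chr19:34583359-34583558 (plus) for Ifit3 and chr5:114896764-114896963 (plus) for Oasl2.
Ddx58: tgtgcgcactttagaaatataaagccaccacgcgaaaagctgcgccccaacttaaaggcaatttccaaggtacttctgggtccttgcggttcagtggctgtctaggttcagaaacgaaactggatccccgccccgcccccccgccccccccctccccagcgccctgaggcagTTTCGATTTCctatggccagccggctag
Ifit1: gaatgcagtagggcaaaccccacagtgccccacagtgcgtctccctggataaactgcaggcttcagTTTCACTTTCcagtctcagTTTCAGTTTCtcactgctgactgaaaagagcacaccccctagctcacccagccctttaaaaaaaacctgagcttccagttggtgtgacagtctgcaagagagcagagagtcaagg
Ifit3: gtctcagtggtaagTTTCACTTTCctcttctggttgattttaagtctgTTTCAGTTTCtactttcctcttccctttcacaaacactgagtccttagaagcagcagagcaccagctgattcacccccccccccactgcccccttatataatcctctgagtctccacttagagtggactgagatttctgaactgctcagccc
Oasl2: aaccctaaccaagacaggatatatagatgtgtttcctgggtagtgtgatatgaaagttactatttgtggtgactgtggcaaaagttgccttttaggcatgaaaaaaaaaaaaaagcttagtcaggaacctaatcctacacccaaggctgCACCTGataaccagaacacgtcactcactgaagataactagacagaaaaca

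Ifit1 and Ifit3 held the same 2 ISRE cores, TTTCACTTTC and TTTCAGTTTC. In Ifit1 they began 104 and 85 bases before the start, with 9 bases between them. In Ifit3 they began 156 and 122 bases before it, with 24 bases between them. Ddx58 held TTTCGATTTC at base 3 after its start, and Oasl2 held CACCTG 21 bases before its start and no ISRE core in the printed stretch.

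Promoters of 28 of the 37 genes were in the RefSeq table, in windows from 250 bases before to 50 after the start. Dhx58, Mx1, Mx2, Oas2, Parp14, Parp9, Rtp4, Usp18 and Zbp1 were not among them. The ISRE core, searched on both strands, was found in 11 of the 28 (39.3%) and in 3.99% of all 27025 genes with a window. The STAT palindrome TTCNNNGAA was found in 35.7% against 9.55%. The general E-box CANNTG, which includes the next pair of motifs, was found in 75% of the 28 and 75% of all genes. CAGGTG was found in 21.4% against 22.6%, and CAGCTG in 25% against 18.3%. A match of letters is a description of the window and not a measured binding site.

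Across the arrays, the median intensity lay between 14.14 and 15.41. The targeted genes followed the labels: Tcf3 fell in E2A-KO against WT by 3.89 on the log2 scale (limma, Benjamini-Hochberg adjusted p = 4.26e-04), and Tcf12 had a log2 difference of -2.01 in HEB-KO against WT (adjusted p = 0.3280), with no overlap between arrays. All 8 progenitor markers examined were above the array median on at least 1 array. Their summed intensity was 19246 and 20930 in WT, 18744 and 18949 in HEB-KO and 8893 to 12489 in E2A-KO. Dntt, the brightest marker, weighs most in these sums. In E2A-KO against WT all 8 were negative, against 54.9% of all genes, and 2 were called lower, against 0.393%. These were Il7r (-2.15, limma adjusted p = 0.0330) and Cd93 (-1.34, adjusted p = 0.0273). In 5 of the 8 every E2A-KO array lay below both WT arrays, against 15.4% of all genes. Besides Il7r and Cd93 these were Kit (-2.08), Dntt (-0.96) and Rag1 (-3.86), which were not called. Rag1 also varied within genotypes, at log2 5.97 and 9.57 in WT and 8.49 and 5.81 in HEB-KO. Flt3 (-0.24), Cd34 (-0.26) and Ctla2a (-1.14) had overlapping arrays. The spike-in hybridization controls were brighter in E2A-KO, at log2 11.52 to 12.62, than in WT, at 11.4 and 10.29. In HEB-KO they were at 10.32 and 11.6, which overlapped both. The part of these markers and of these controls in the results below was not tested. In bulk RNA, fewer cells expressing a gene and less RNA per cell cannot be told apart.

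In E2A-KO progenitors, 2 interferon response genes fell against WT, Usp18 by 5.44-fold and Rtp4 by 3.35-fold. USP18 removes the ubiquitin-like protein ISG15 from its targets and restrains signalling at the interferon receptor. RTP4 is an interferon-inducible chaperone of receptor transport. Usp18 was above the array median on 2 of the 4 E2A-KO arrays, and values near the floor understate a fall. These 2 of 35 stand beside 0.393% of all genes tested called lower, and none of the 35 was called higher, against 0.0502%. Of the 35, 30 had a negative difference (85.7%, against 54.9% of all genes tested). Their median log2 difference was -0.43, beside -0.05 for all genes tested. At an unadjusted p under 0.05, 14 were lower and 0 higher, against 9.8% and 3.57% of all genes. A difference of at least 2-fold lower was measured for 9 genes (25.71%), against 5.08% of all genes, and 0 were at least 2-fold higher, against 0.97%.

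In HEB-KO progenitors no interferon response gene passed the test against WT, and neither did any other gene (0%). At an unadjusted p under 0.05, 3 were lower, namely Rtp4, Ifit1 and Usp18, and 0 higher, against 0.761% and 1.85% of all genes. At least 2-fold lower were the same 3 genes, against 0.669% of all genes, and 0 were at least 2-fold higher, against 0.853%. The median difference was -0.06, beside 0.09 for all genes tested, and 19 of 35 were negative (54.3%, against 38.2% of all genes). Between E2A-KO and HEB-KO, 0 of 35 were called, against 0.1% of all genes called lower and 0.0167% higher. In that comparison 10 were lower at an unadjusted p under 0.05, against 13.8% of all genes, and 0 higher, against 2.69%. At least 2-fold lower were 6, against 6.23% of all genes, and 0 were at least 2-fold higher, against 0.736%. The median was -0.41, beside -0.16, and 29 of 35 were negative (82.9%, against 62.9% of all genes). Without HEB-KO 2 the median was -0.13, beside -0.22 for all genes, so the order of these medians rests on that array. The E2A-KO and HEB-KO comparisons with WT share the 2 WT arrays and are not independent. The signs counted here are those of the brightest probe sets. Of 20 dimmer probe sets of these genes above the filter, 16 had the same sign as the brightest in E2A-KO against WT. Only 12 did in HEB-KO against WT, and 11 in E2A-KO against HEB-KO.

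**Figure D1:**
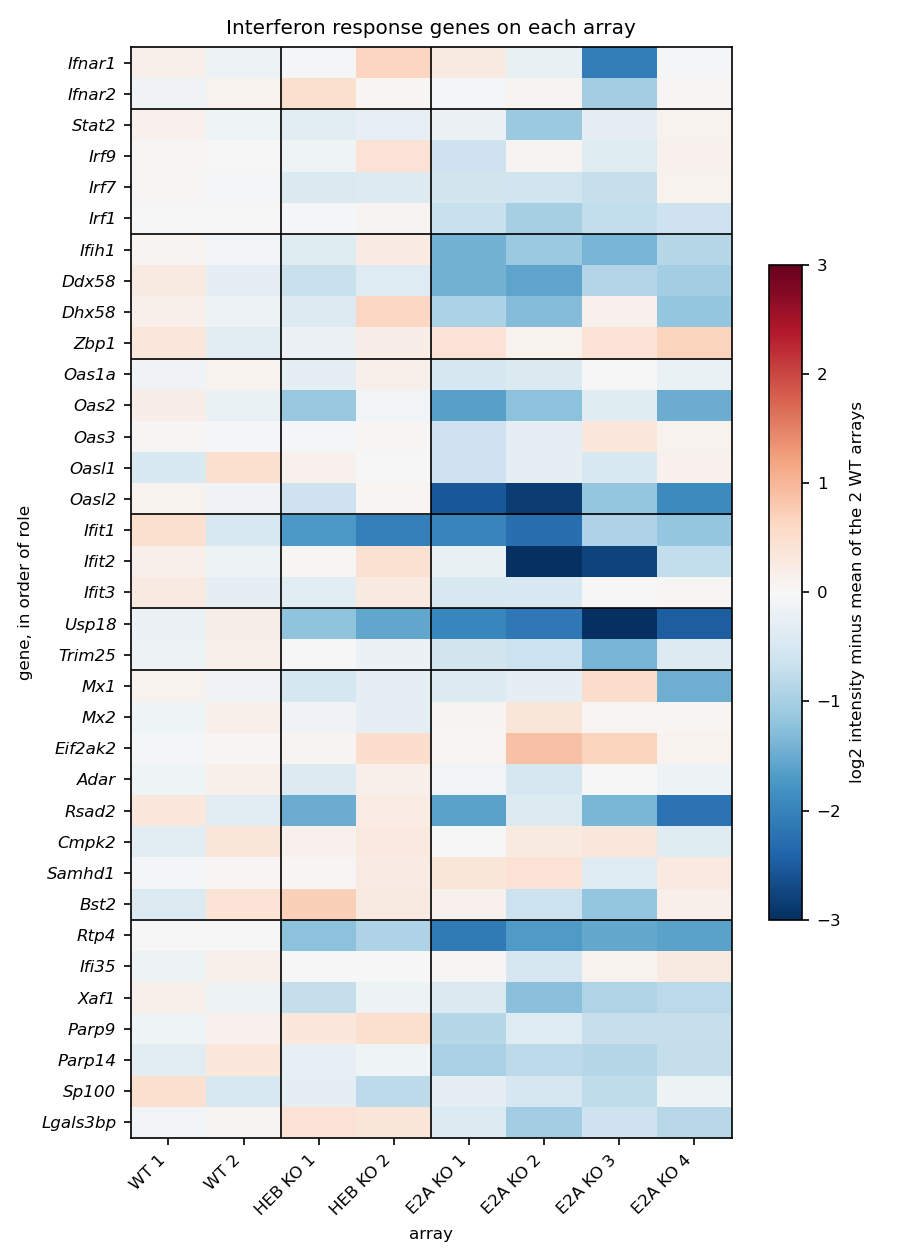
Each row is 1 of the 35 interferon response genes and each column 1 of the 8 arrays; colour gives log2 intensity minus the mean of the 2 WT arrays, on a scale that ends at -3 and 3. Of the 35 genes, 20 to 27 lay below both WT arrays on each E2A-KO array, and 18 and 11 on the HEB-KO arrays.

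Array by array, the mean log2 level of the 35 genes was 6.80 and 6.76 in WT, 6.48 and 6.73 in HEB-KO, and 6.13, 6.03, 6.11 and 6.24 in E2A-KO. Every E2A-KO array was thus below every other array. Over all genes tested the mean was 6.44 and 6.59 in WT, 6.66 and 6.55 in HEB-KO, and 6.49, 6.38, 6.31 and 6.42 in E2A-KO, where 3 of the 4 E2A-KO arrays were also below every other array. The genes below both WT arrays numbered 24, 27, 24 and 20 on the E2A-KO arrays, where 34.6%, 42.0%, 46.8% and 41.0% of all genes tested lay below both. On the HEB-KO arrays they numbered 18 and 11, where the shares of all genes were 22.9% and 29.2%.

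The receptor chains showed no call. Ifnar1 was at log2 7.53 and 7.22 in WT, 7.34 and 8.02 in HEB-KO, and 7.66, 7.15, 5.31 and 7.35 in E2A-KO. A single E2A-KO array was low and the groups overlapped, with a difference from WT of -0.51 ± 0.58 (SE; limma adjusted p = 0.7192). Ifnar2 was at 8.30 and 8.51 in WT, 8.87 and 8.43 in HEB-KO, and 8.35, 8.48, 7.36 and 8.44 in E2A-KO. The same E2A-KO array, replicate 3, was the low one, and the difference was -0.25 ± 0.34 (adjusted p = 0.7652). At the dimmer Ifnar2 probe sets that array was not the lowest. It was at 8.05 and 6.56 there, where the other E2A-KO arrays were at 7.76 to 8.12 and 5.81 to 6.68. A dimmer probe set of Ifnar1 had a difference of -1.45 in E2A-KO and -1.26 in HEB-KO, so the probe sets of this gene disagreed in HEB-KO, where the brightest gave 0.30.

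Of the 4 transcription factors, Irf1 stood apart in E2A-KO. IRF1 is an interferon-inducible factor that also acts in basal expression of antiviral genes. Its log2 level was 9.02 and 9.02 in WT, 8.98 and 9.10 in HEB-KO, and 8.36, 8.03, 8.29 and 8.39 in E2A-KO. All 4 E2A-KO arrays lay below the other 4. The difference was -0.75 ± 0.20 against WT (adjusted p = 0.1626) and -0.77 ± 0.20 against HEB-KO (adjusted p = 0.1521), and neither passed.

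STAT2 and IRF9 are parts of the ISRE-binding complex. Stat2 was at 5.67 and 5.40 in WT, 5.21 and 5.29 in HEB-KO, and 5.36, 4.43, 5.24 and 5.65 in E2A-KO. Irf9 was at 7.82 and 7.77 in WT, 7.65 and 8.23 in HEB-KO, and 7.18, 7.87, 7.43 and 7.91 in E2A-KO. For both, E2A-KO overlapped WT, with differences of -0.37 ± 0.33 (adjusted p = 0.6413) and -0.20 ± 0.28 (adjusted p = 0.7763).

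Irf7 encodes the factor that amplifies interferon production. It was at 6.11 and 6.04 in WT, 5.64 and 5.68 in HEB-KO, and 5.53, 5.49, 5.39 and 6.18 in E2A-KO. Both HEB-KO arrays and 3 of 4 E2A-KO arrays were below WT, and the differences of -0.42 ± 0.30 (adjusted p = 1) and -0.43 ± 0.26 (adjusted p = 0.4875) did not pass.

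Among the sensors, Ifih1 (MDA5) and Ddx58 (RIG-I), which detect viral RNA in the cytoplasm, were low on every E2A-KO array. Ifih1 was at log2 7.11 and 6.93 in WT, 6.66 and 7.26 in HEB-KO, and 5.61, 5.91, 5.62 and 6.16 in E2A-KO. HEB-KO spanned the WT values, and E2A-KO overlapped neither group. The difference was -1.19 ± 0.26 against WT (adjusted p = 0.0995) and -1.13 ± 0.26 against HEB-KO (adjusted p = 0.1266).

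Ddx58, whose promoter is printed above, was at 7.76 and 7.22 in WT, 6.82 and 7.11 in HEB-KO, and 6.08, 5.90, 6.60 and 6.46 in E2A-KO. The 3 genotypes formed separate ranges, with WT highest and E2A-KO lowest. The difference from WT was -1.23 ± 0.27 in E2A-KO (adjusted p = 0.1047) and -0.52 ± 0.32 in HEB-KO (adjusted p = 1). Its dimmer probe sets gave -0.94 and -0.53 in E2A-KO, the same direction.

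Dhx58 (LGP2), a regulator of both sensors, had a difference of -0.81 ± 0.44 in E2A-KO with overlapping arrays. Zbp1, a sensor of Z-form nucleic acid, had the opposite sign at 0.41 ± 0.27. Neither passed.

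The oligoadenylate synthetase family includes the enzymes that make the messenger that activates RNase L. Oasl2 was at log2 5.71 and 5.49 in WT, 4.97 and 5.65 in HEB-KO, and 3.05, 2.75, 4.45 and 3.68 in E2A-KO. All E2A-KO arrays were below both other groups, and only 1 of the 4 was above its array median, where values near the floor understate a difference. The difference was -2.12 ± 0.44 against WT (adjusted p = 0.0929) and -1.83 ± 0.44 against HEB-KO (adjusted p = 0.1377).

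Oas2 was at 6.67 and 6.28 in WT, 5.34 and 6.38 in HEB-KO, and 4.84, 5.24, 6.10 and 4.98 in E2A-KO. E2A-KO lay below WT on every array but overlapped HEB-KO, and the difference from WT was -1.18 ± 0.41 (adjusted p = 0.2685). Oasl1, the neighbour of Oasl2, had a difference of -0.32 ± 0.31 with overlapping arrays. Oas1a and Oas3 had -0.30 ± 0.23 and -0.12 ± 0.28, also overlapping.

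The IFIT proteins bind viral RNA or restrain translation. Ifit1 was at log2 5.87 and 4.92 in WT, 3.68 and 3.35 in HEB-KO, and 3.43, 3.15, 4.47 and 4.25 in E2A-KO. Both knockouts lay below WT and overlapped each other, and neither HEB-KO array was above its array median. The difference was -1.57 ± 0.42 in E2A-KO (adjusted p = 0.1595) and -1.88 ± 0.49 in HEB-KO (adjusted p = 1).

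Ifit2 was at 5.91 and 5.59 in WT, 5.79 and 6.20 in HEB-KO, and 5.53, 2.65, 2.98 and 5.01 in E2A-KO. The E2A-KO arrays split into 2 near WT and 2 far below it, and the difference of -1.71 ± 0.75 did not pass (adjusted p = 0.3748). Ifit3 was at 4.58 and 4.05 in WT, 3.97 and 4.58 in HEB-KO, and 3.83, 3.85, 4.31 and 4.35 in E2A-KO. All 3 groups overlapped, with differences of -0.22 ± 0.28 and -0.04 ± 0.33 from WT. Ifit1 and Ifit2 thus had different patterns across the arrays. Ifit3 had values close to the array medians in all 3 groups. It was above the median on only 2 of the 4 E2A-KO arrays, and values near the floor understate a difference. Its pattern can therefore not be set against that of Ifit1, which holds the same ISRE cores.

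Usp18 belongs to the ISG15 system, in which ISG15 is joined to proteins and removed again. It was at log2 5.92 and 6.26 in WT, 4.88 and 4.54 in HEB-KO, and 4.14, 3.95, 2.88 and 3.61 in E2A-KO. The 3 genotypes did not overlap, with HEB-KO between WT and E2A-KO. The fall in E2A-KO was -2.44 ± 0.35 (95% interval -3.23 to -1.66; limma adjusted p = 0.0276). In HEB-KO the difference was -1.38 ± 0.40 (adjusted p = 1), and between the knockouts it was -1.07 ± 0.35 (adjusted p = 0.2066). Usp18 has a single probe set, and its call was lost without any 1 of WT 1, WT 2, HEB-KO 1, HEB-KO 2, E2A-KO 2 or E2A-KO 4 (adjusted p 0.0583 to 0.2892).

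Trim25, a ubiquitin ligase that acts on RIG-I, was at 10.68 and 10.98 in WT, 10.83 and 10.66 in HEB-KO, and 10.29, 10.19, 9.44 and 10.41 in E2A-KO. E2A-KO lay below both other groups, and the difference from WT was -0.74 ± 0.29 (adjusted p = 0.3353).

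The other antiviral effectors were mixed, with 4 of 8 negative in E2A-KO and a median of -0.06. Rsad2 (viperin) was at log2 6.74 and 6.12 in WT, 4.93 and 6.66 in HEB-KO, and 4.82, 6.01, 5.07 and 4.22 in E2A-KO. E2A-KO lay below WT, with a difference of -1.40 ± 0.56 (adjusted p = 0.3391). Its neighbour Cmpk2, a nucleotide kinase, had 0.06 ± 0.28 with overlapping arrays.

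Eif2ak2 (PKR), a kinase that halts translation on double-stranded RNA, was at 5.34 and 5.47 in WT, 5.50 and 5.93 in HEB-KO, and 5.48, 6.30, 6.07 and 5.51 in E2A-KO. Every knockout array was above both WT arrays, with a difference of 0.43 ± 0.29 in E2A-KO (adjusted p = 0.5468). Its dimmer probe sets had the opposite sign, at -1.13 and -0.22, so no direction is given for this gene. Mx1, Mx2, Adar, Samhd1 and Bst2 had E2A-KO differences between -0.41 and 0.18 at their brightest probe sets, with overlapping arrays. Dimmer probe sets gave -0.34 to 0.76 for Samhd1 and -0.55 and -0.90 for Adar, and none was called.

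**Figure D2:**
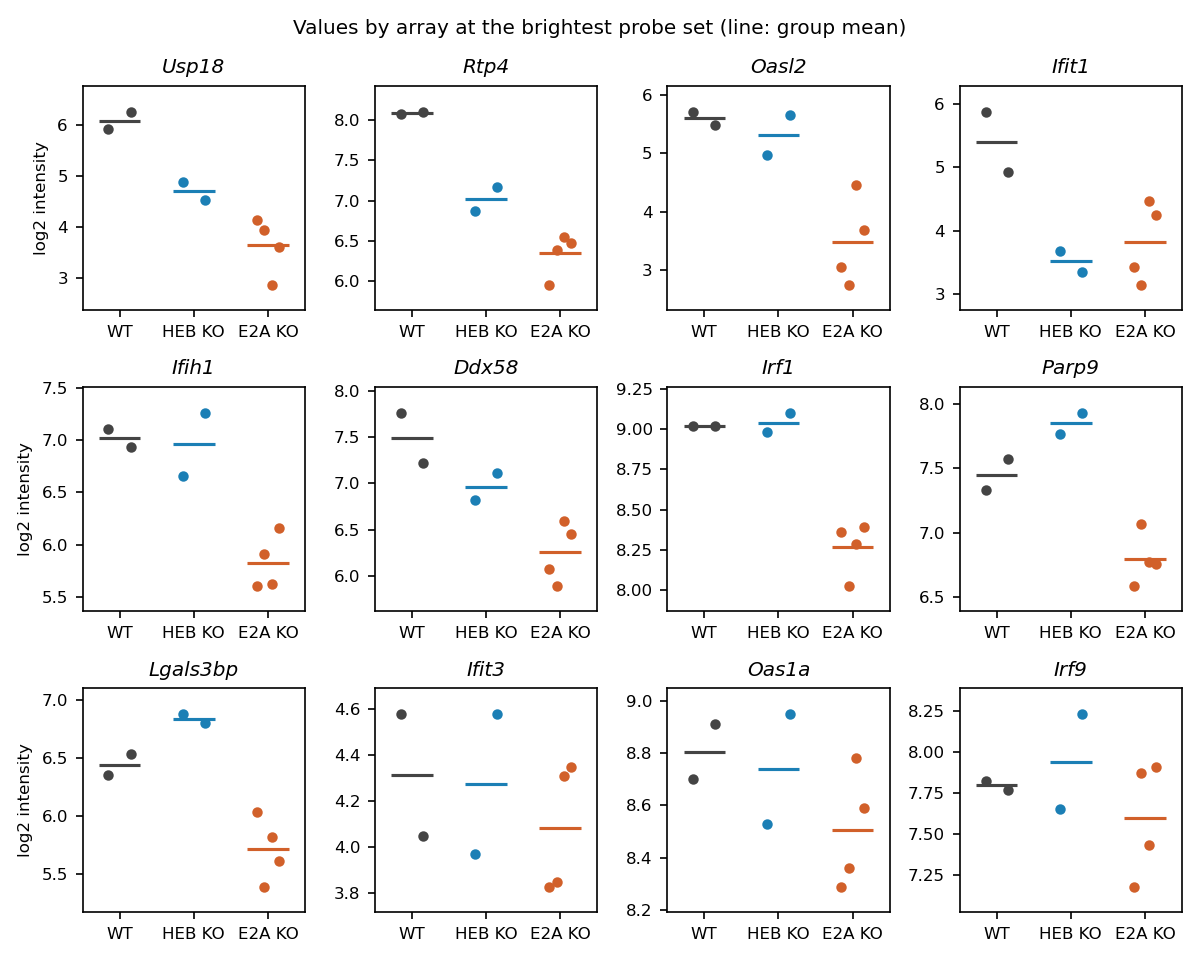
Log2 intensity of 12 interferon response genes by genotype, 1 point per array and a line at each group mean. Usp18 separates into 3 levels, at 5.92 and 6.26 in WT, 4.54 and 4.88 in HEB-KO and 2.88 to 4.14 in E2A-KO. Ifit3, with values close to the array medians, overlaps throughout.

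Rtp4 varied less between arrays of a genotype than Usp18. It was at log2 8.08 and 8.10 in WT, 6.87 and 7.17 in HEB-KO, and 5.96, 6.39, 6.55 and 6.48 in E2A-KO. As for Usp18, the genotypes did not overlap and HEB-KO lay between the others. The fall in E2A-KO was -1.74 ± 0.23 (95% interval -2.27 to -1.22; limma adjusted p = 0.0224). In HEB-KO the difference was -1.07 ± 0.27 (adjusted p = 1), and between the knockouts -0.68 ± 0.23 (adjusted p = 0.2213). The call was lost without WT 1, WT 2 or E2A-KO 2 (adjusted p 0.0583 to 0.2353). It was also lost when all probe sets of a gene were averaged (-0.82, adjusted p = 0.1014), since the dimmer Rtp4 probe set lay between 2.43 and 3.07, near the floor. With the hybridization controls as a covariate neither gene was called, Rtp4 at -2.08 (adjusted p = 0.2265) and Usp18 at -1.76 (adjusted p = 0.4527).

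Parp14 and Parp9 are neighbouring genes of ADP-ribosyltransferases. Parp14 was at 8.55 and 9.18 in WT, 8.63 and 8.73 in HEB-KO, and 7.89, 8.08, 8.02 and 8.16 in E2A-KO. E2A-KO lay below both other groups, with a difference from WT of -0.83 ± 0.23 (adjusted p = 0.1790).

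Parp9 was at 7.33 and 7.57 in WT, 7.77 and 7.93 in HEB-KO, and 6.59, 7.07, 6.77 and 6.76 in E2A-KO. Here HEB-KO lay above WT and E2A-KO below it, with differences of 0.40 ± 0.25 and -0.65 ± 0.22 (adjusted p = 1 and 0.2547). Between the knockouts the difference was -1.05 ± 0.22 (adjusted p = 0.1082).

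Lgals3bp, a secreted galectin-binding glycoprotein, had the same order. It was at 6.35 and 6.53 in WT, 6.88 and 6.80 in HEB-KO, and 6.03, 5.39, 5.82 and 5.61 in E2A-KO. The difference was -0.73 ± 0.23 in E2A-KO (adjusted p = 0.2324), 0.40 ± 0.27 in HEB-KO (adjusted p = 1) and -1.13 ± 0.23 between the knockouts (adjusted p = 0.1082). Xaf1, Sp100 and Ifi35 had E2A-KO differences of -0.85 ± 0.28, -0.43 ± 0.31 and -0.02 ± 0.25, and of these Xaf1 alone had E2A-KO arrays apart from WT.

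Sorted by array overlap, 15 of 35 genes had every E2A-KO array below both WT arrays, against 15.4% of all genes tested, and 1 had every one above, against 9.98%. That 1 is Eif2ak2, whose dimmer probe sets had the opposite sign. In HEB-KO 8 lay below, against 11.4%, and 4 above, against 23.4%. Between the knockouts E2A-KO lay below in 12, against 21.6%, and above in 1, against 7.82%. Ddx58, Ifit1, Rtp4, Usp18 and Xaf1 had all arrays of both knockouts below WT, a pattern of 3.77% of all genes. For Xaf1 this was narrow in HEB-KO, with HEB-KO 2 at log2 7.48 and WT 2 at 7.49. Parp9 and Lgals3bp had E2A-KO below and HEB-KO above WT, a pattern of 1.8% of all genes. HEB-KO differences depend on the scaling by about 0.1, since cyclic loess moved the median of all genes from 0.09 to -0.01. The signs given here for these 7 genes in HEB-KO held under cyclic loess and both forms of median centring.

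**Figure D3:**
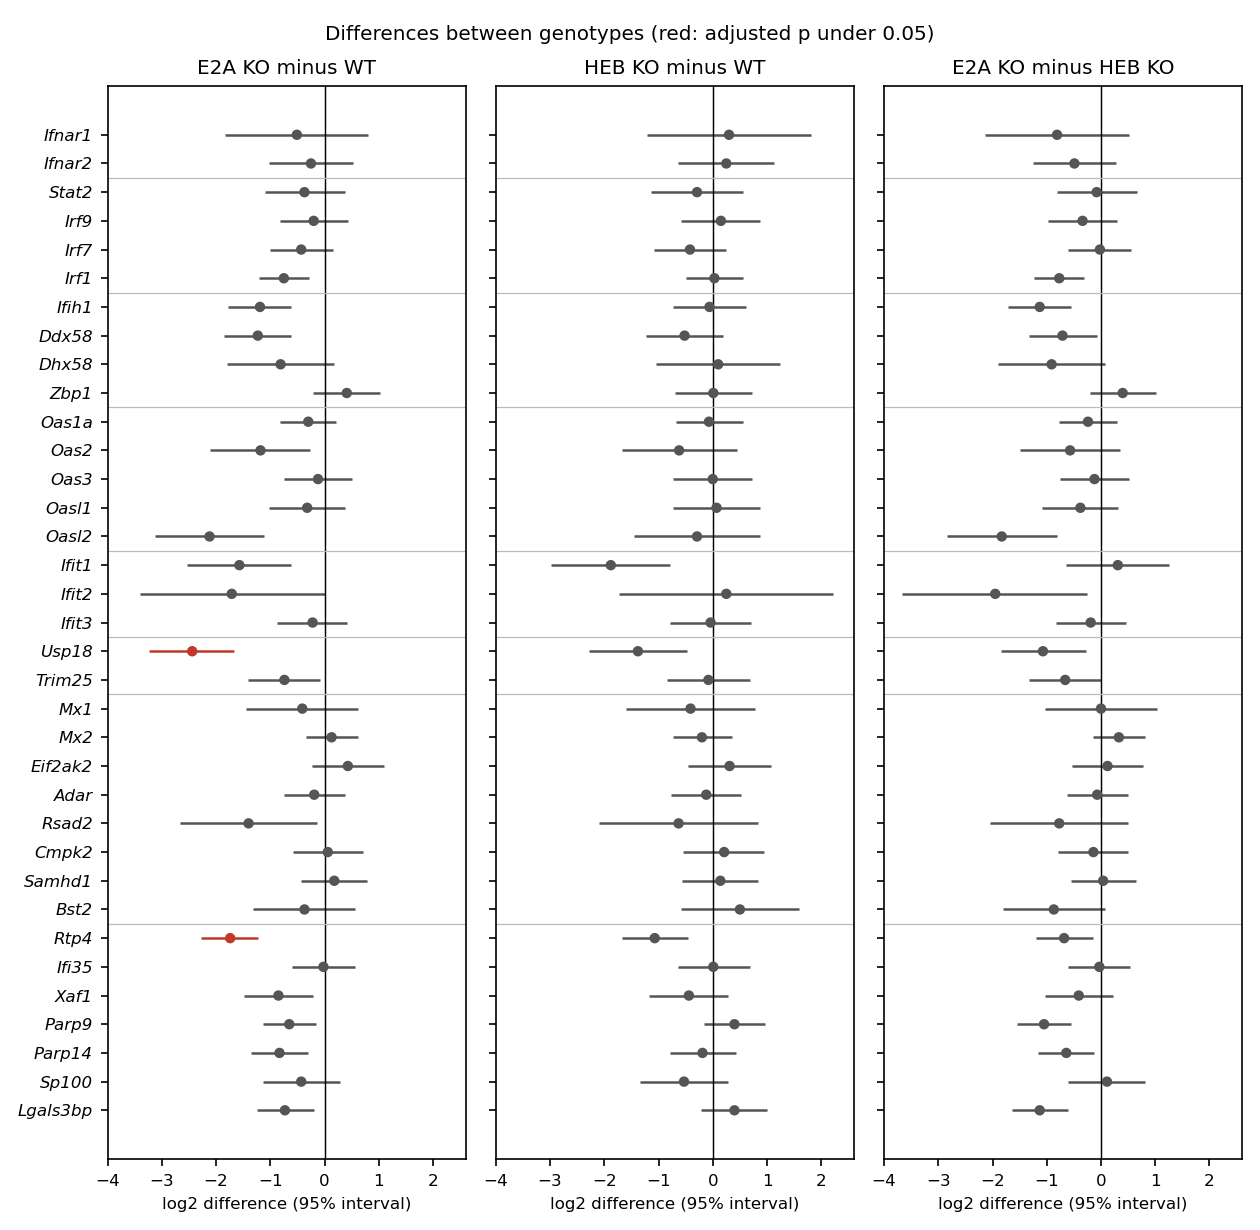
Log2 differences of the 35 genes in the 3 comparisons between genotypes, with 95% intervals; red marks an adjusted p under 0.05. Usp18 (-2.44) and Rtp4 (-1.74) are the calls, both in E2A-KO against WT.

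The rest of the pathway was read from lists of 119 further genes, of which 81 were tested. None was called in any comparison by limma. In E2A-KO against WT 57 of 81 were negative (70.4%, against 54.9% of all genes) with a median of -0.36, beside -0.05. At an unadjusted p under 0.05, 19 were lower and 0 higher, against 9.8% and 3.57% of all genes. The kinases Jak1 and Tyk2 each had -0.36 in E2A-KO (adjusted p = 0.5483 and 0.5521). Of 17 ligand genes 2 passed the filter, Ifna1 and Ifna9, but on no WT array were they above the array median, so no difference is given for them. Ifnb1, the interferon beta gene, was below the array median on all 8 arrays.

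Of 44 other interferon-inducible genes tested, 34 were negative in E2A-KO (77.3%) with a median of -0.59, and 18 were lower at an unadjusted p under 0.05, to be read against the same shares of all genes (54.9% negative, 9.8% lower). Uba7 encodes the enzyme that activates ISG15. It was at log2 9.14 and 9.28 in WT, 8.76 and 8.69 in HEB-KO, and 8.17, 7.95, 7.99 and 8.18 in E2A-KO. The genotypes again did not overlap, and the difference of -1.14 ± 0.19 in E2A-KO fell just short of the threshold (adjusted p = 0.0507). Uba7 was chosen after its value was seen. In HEB-KO 2 of the 81 were lower at an unadjusted p under 0.05, Herc6 at -1.06 and Samd9l at -1.39, against 0.761% of all genes, and 1 was higher, against 1.85%.

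Markers of cells that make or respond to interferon were read on the same arrays. Of 12 plasmacytoid dendritic cell markers 10 were measured, and Cd209d was at or below the array median throughout. Their summed intensity was 5506 and 6552 in WT, 7178 and 5049 in HEB-KO, and 2766 to 6503 in E2A-KO, with overlap. The markers did not move together: in E2A-KO Ccr9 fell by 5.28 on the log2 scale (limma adjusted p = 0.0033) and Cox6a2 had a difference of -1.80 (adjusted p = 0.0598), while the defining marker Siglech was at log2 4.54 and 5.31 in WT and 4.81 to 6.95 in E2A-KO. Of the 9 tested, 1 was called lower, against 0.393% of all genes. The median difference was 0.22, beside -0.05 for all genes tested. Granulocyte and monocyte markers, 14 of 15 measured, with Fcgr3 and Itgam at or below the median, summed to 3284 and 3485 in WT, 4848 and 7068 in HEB-KO, and 2829 to 5727 in E2A-KO. Over the 12 tested, the median difference was 1.59 in HEB-KO against WT, beside 0.09 for all genes tested. Of the 12, 8 had both HEB-KO arrays above both WT arrays, against 23.4% of all genes. In E2A-KO against HEB-KO their median was -1.84, beside -0.16 for all genes. The granule genes Camp, Ltf, Lcn2 and Ngp were 6.98, 7.32, 6.05 and 11.93 times as high in HEB-KO as in WT, and none was called (adjusted p = 1). Ltf, Lcn2 and Ngp were each above the array median on 1 WT array only, so their WT values are near the floor. Not all markers rose: 2 of the 12 were negative in HEB-KO (16.7%, against 38.2% of all genes), Elane at -0.32 and Csf1r at -0.24. E2A-KO 3 stood above the other E2A-KO arrays for Camp, Ltf, Lcn2 and Ngp, with Ngp at log2 8.65 against 3.21 to 4.71. Of 9 measured conventional dendritic cell and macrophage markers, 6 were at or below the array median on all arrays. Erythroid markers summed to 760.1 in E2A-KO 1 and to 75.86 to 115.5 on the other arrays. The actin 3' minus 5' log2 difference, a sign of RNA quality, was 3.37 and 3.58 in HEB-KO and 3.84 to 4.78 on the other arrays. The part of these cells and of RNA quality in the results was not tested.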

How the data were processed

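The authors deposited 1 intensity value for each probe set and array, made with RMA per the submitters' processing notes. For the chip definition, RMA version and genome build, the sources used here give nothing. Per the labels' protocols, RNA was amplified over more than 1 round. The deposited intensity values were on a linear scale and were converted to log2 without further normalization. Precision is limited by the number of arrays. No arrays were identical or left out.

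Of 45101 probe sets, 34945 named a single gene, and those naming several (932) or none (9160) were not used. The 3 genotypes were compared in 1 fit of limma 3.58.1 under R 4.3.3, over 8 arrays and 11957 genes, which left 5 residual degrees of freedom. Tests were two-sided, p-values were adjusted by Benjamini-Hochberg over all genes, and "fell" and "called" mean an adjusted p under 0.05. The script was tested on simulated data.

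The genes and lists were chosen with earlier results of these data known. Given in full were called genes, the receptor chains, the transcription factors and, besides the called genes, the 2 genes of each role with the smallest p in E2A-KO against WT. Parp9, Xaf1 and Ifit3 were singled out after their values were seen. Alternatives covered filters, scaling, probe set choice, variance and weight settings, arrays left out, a replicate block and the hybridization controls.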

Additional observations from a re-analysis of the deposited data

Results flagged for a closer look

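In 3 of 35 genes 1 of the 4 E2A-KO arrays lay far from the rest, measured as its gap to the nearest array over the whole range, above the 95% critical value of Dixon's test. Ifnar2 was lowest in E2A-KO 3, at log2 7.36 against 8.35 for the nearest (0.889), but its dimmer probe sets were not lowest there. Samhd1 was lowest in the same array, at 7.38 against 8.07 (0.833). Its dimmer probe sets disagreed: that array was also lowest where it was at 6.76 and 4.97, but not where it was at 7.17 and 7.15. Mx2 was highest in E2A-KO 2, at 4.69 against 4.41 (0.9). Chance alone picks out about 1 in 20 groups.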

How the results depend on the processing

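Under 23 alternatives, Usp18 and Rtp4 kept a negative difference in E2A-KO against WT wherever they were tested, but not their calls. The 2 calls became 1 with the filter at the 75th percentile (Usp18 was not tested), with the mean of all probe sets or with only the compared genotypes. They became 0 with the hybridization control covariate, without both WT 2 and HEB-KO 1, or at an adjusted p of 0.01, and 4 at 0.10. Leaving out 1 array gave 0 to 3, the third being Oasl2 without E2A-KO 3 (adjusted p = 0.0199). Oasl2 was also called with array weights, against WT (0.0241) and, as the 1 call there, against HEB-KO (0.0477).

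Over all genes, the 53 calls of E2A-KO against WT became 91 with trend and robust, 120 with array weights, 26 with only the compared genotypes, 1 with the covariate, 0 without both arrays, and 3 and 153 at 0.01 and 0.10, with 2 to 104 when 1 array was left out. The 14 calls between the knockouts became 42, 91, 6, 1, 0, 1 and 86 in the same order, with 1 to 21. Of these calls 85.7% were lower, against 70.0% with cyclic loess.

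The median of the 35 genes in E2A-KO against WT, -0.43, was -0.58 with the 75th percentile filter (all genes -0.16) and -0.58 with the covariate, and -0.65 to -0.39 with 1 array left out. In HEB-KO against WT, -0.06 became 0.09 without both arrays and 0.05 without HEB-KO 1, in a range of -0.24 to 0.05, so it has no stable sign. Between the knockouts, -0.41 became -0.61 with the filter, -0.22 with cyclic loess (all genes from -0.16 to -0.01) and -0.58 without both arrays, with -0.58 to -0.13 when 1 was left out (-0.13 without HEB-KO 2, beside -0.22 for all genes). The cause of these changes was not tested. Of genes not called, 12, 17 and 15 changed sign under at least 1 alternative in E2A-KO against WT, HEB-KO against WT and E2A-KO against HEB-KO.

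Whether array numbers pair the samples could not be settled from the values. Deviations of same-numbered WT and HEB-KO arrays correlated at -0.28. With 2 arrays in each group these deviations mirror each other, so the crossed pairs give 0.28. Same-numbered pairs with E2A-KO arrays ran from -0.15 to 0.15. With a replicate block, which leaves 2 residual degrees of freedom, 0 of the 35 genes and 12 of all genes were called in E2A-KO against WT (median of the 35 genes -0.57), and 3 of all genes between the knockouts. A crossed pairing, chosen after seeing the data, gave 0 and 8 calls, and 0 between the knockouts, with a median of -0.57.

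Centring each array on its median can be read in 2 ways. Centring on the median over genes was run first and gave 67 calls in E2A-KO against WT and 11 between the knockouts, with medians of the 35 genes of -0.41, -0.13 (HEB-KO against WT) and -0.32. Centring on the median of all probe sets, added after those values were seen, gave 62 and 21 calls and medians of -0.49, -0.02 and -0.50. The 35 genes had 2 calls in E2A-KO against WT under both.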
